A study of Mus musculus with 12 samples.

Results

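The suppressor of cytokine signalling (SOCS) family was followed through 4 of its genes, Socs1, Socs2, Socs3 and Cish, in the livers of mice given a cytokine. Every probe set that the platform annotation assigns to 1 of these symbols was taken, which gave 5 of the 12488 probe sets of the arrays and 4 of the 8251 genes named by a probe set with a single symbol. Socs1 was measured by 92832_at, Socs2 by 99475_at, Socs3 by 92232_at and 162206_f_at, and Cish by 100022_at. All 5 read above the floor of 33.1 intensity units on 12 of 12 arrays, so none was lost to a filter on dim probe sets.

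The 12 Affymetrix arrays fell into 6 groups of 2 and measured total liver RNA. The mice had been killed 4 h after intraperitoneal injection. Control mice, albumin-cre(-) Socs3(w/fl), carried 1 floxed and 1 wild-type Socs3 allele without the recombinase, and were given either interleukin-6 (IL-6) or phosphate-buffered saline (PBS). Socs3-deleted mice, albumin-cre(+) Socs3(-/fl), received the same injections. They carried a Socs3 null allele in every cell, and a floxed allele that Cre removes where the albumin promoter is active, which is the hepatocyte; the other liver cells keep that allele. Interferon-gamma-/- mice received PBS or interferon-gamma (IFN-γ), and the labels list neither control mice given IFN-γ nor Ifng-null mice given IL-6. Strain, sex and age were not among the labels used here. Nothing in the labels tells whether the 2 arrays of a group came from different mice, and p-values here reflect only how far such arrays differ, which may be technical.

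SOCS proteins are made in response to the cytokines they restrain. A cytokine receptor activates Janus kinases (JAKs), which phosphorylate STAT transcription factors, and the STATs switch on SOCS genes. SOCS1 and SOCS3 carry a kinase inhibitory region that blocks JAKs directly, SOCS3 while docked on the IL-6 receptor subunit gp130 and SOCS1 mainly at interferon receptors. SOCS2 and CIS, the product of Cish, are best known in the liver as products of growth hormone signalling through STAT5. All members share an SH2 domain and a C-terminal SOCS box that recruits a ubiquitin ligase.

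The promoters are shown because the family is read out here under cytokines that act through STAT sites. RefSeq promoter windows (GRCm38.p6, 250 bases before to 50 after the transcript start) matched 3 of the 4 members, and each was searched on both strands for the STAT dimer motif GAS, TTCNNNGAA, and the core of the interferon response element ISRE, GAAANNGAAA. The stretch around the matches is printed on the strand of the gene with the matched bases in capitals, at chr16:10785564-10785659 on the minus strand for Socs1, chr11:117969472-117969560 on the minus strand for Socs3 and chr9:107296619-107296688 on the plus strand for Cish.
Socs1: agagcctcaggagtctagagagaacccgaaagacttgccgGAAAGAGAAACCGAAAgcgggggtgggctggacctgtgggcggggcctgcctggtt
Socs3: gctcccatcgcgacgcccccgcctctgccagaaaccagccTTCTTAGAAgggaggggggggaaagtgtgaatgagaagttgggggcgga
Cish: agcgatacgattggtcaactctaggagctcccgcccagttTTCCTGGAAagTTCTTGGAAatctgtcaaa
The Socs1 window held 2 overlapping ISRE core matches, which run from 83 to 74 and from 77 to 68 bases before the start. The Socs3 window held 1 GAS match, 154 to 146 bases before the start. The Cish window held 2 GAS matches, at bases 1 to 9 and 12 to 20 of the transcript. Of 32851 RefSeq promoter windows of this length, 8.3% held GAS and 3.44% the ISRE core, and 0.457% and 0.225% held 2 or more matches. A match describes the letters only, and binding was not measured.

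**Figure D1:**
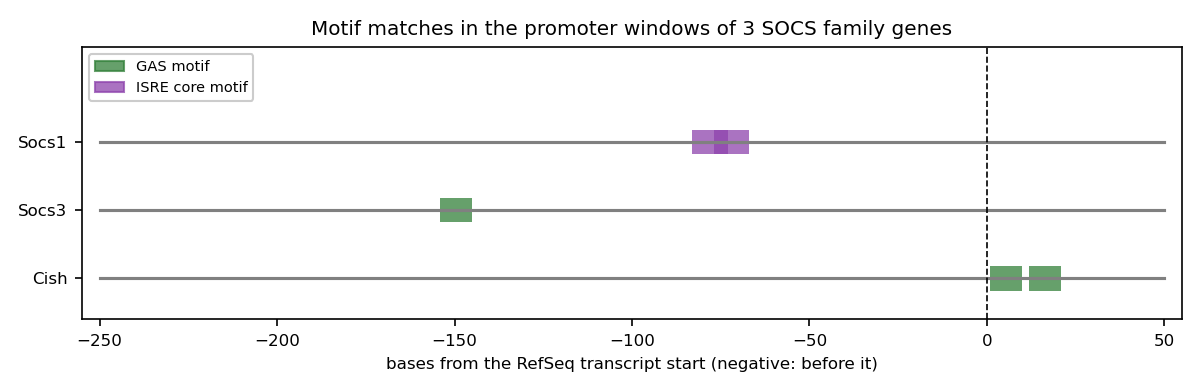
Positions of GAS (green) and ISRE core (purple) matches in the 300-base promoter windows of Socs1, Socs3 and Cish, in bases from the RefSeq transcript start (dashed line). The Socs1 matches overlap each other, the Socs3 match lies farthest upstream and both Cish matches lie just after the start.

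The deposited intensities had medians of 80.6 to 85.7 per array, and replicates correlated across probe sets at Pearson's r of 0.977 to 0.987. Of 8 measured hepatocyte markers none lay at or below the floor throughout, and their summed intensity was 35806 to 47240. The summed signal of 8 macrophage markers was highest in Socs3-deleted mice after IL-6, at 2586 and 2965 against 1581 to 2423 on the other 10 arrays. Cd14, a receptor gene for bacterial lipopolysaccharide, read 775 and 842 there against 229 to 328 elsewhere. Without it the other 7 markers summed to 2190 and 1743, within or just above the 1327 to 2112 of the other arrays. In whole liver, a change in the number of cells of a type cannot be told apart from a change in RNA per cell. The pancreatic enzyme gene Prss2 stood out on replicate 2 of control mice after PBS (651) and replicate 2 of Socs3-deleted mice after PBS (1863), against 22.4 to 27.3 on the others.

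Socs3, the targeted gene, read lower on every array of Socs3-deleted mice than on every array of control mice, on both probe sets. On 92232_at, the control arrays read 124 and 117 after PBS and 167 and 139 after IL-6, and the Socs3-deleted arrays 76.8 and 74.4 after PBS and 106 and 84.3 after IL-6. On 162206_f_at, whose suffix is Affymetrix's mark for probes shared by similar transcripts, the control arrays read 78.8, 88.2, 113 and 97.3 in the same order and the Socs3-deleted arrays 60.8, 52.6, 68.4 and 57.2. Intensity above the floor therefore remained in the Socs3-deleted livers, around the array medians of 80.6 to 85.7. How much of it was background was not tested. The sources used here do not say which exons the 2 probe sets cover or which part the deletion removes. Averaged over both injections, the log2 change with the deletion was -0.68 ± 0.12 (SE), or 1.61-fold lower, on 92232_at (limma adjusted p = 0.0464) and -0.65 ± 0.12, or 1.57-fold lower, on 162206_f_at (limma adjusted p = 0.0437). These were 2 of the 5 family probe sets called in that comparison, beside 0.799% of the 9633 probe sets tested (77). Within the injections an exact two-sided permutation test gave p = 0.0556 for each probe set, the smallest its 36 relabellings allow.

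The call depended on the averaging and on settings. After PBS alone the log2 change was -0.67 and -0.56 on the 2 probe sets (limma adjusted p = 0.586 and 0.776). There 0% of all probe sets and 0 of 5 family probe sets were called. An unadjusted p under 0.05 was found for 399 probe sets, among them these 2. After IL-6 alone the log2 change was -0.69 and -0.75 (limma adjusted p = 0.148 and 0.0856), where 0.955% of all probe sets and 0 of 5 family probe sets were called. Both probe sets stayed called for the average in 7 of 22 alternatives. Leaving out either array of the Ifng-null PBS group kept both calls, and leaving out any other single array ended both, with log2 changes from -0.76 to -0.60 on 92232_at.

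No IL-6 response of Socs3 was called. The control arrays after IL-6 lay above both PBS arrays on each probe set, with log2 changes of 0.34 and 0.33. Groups this small often separate by chance, so the separation alone is weak evidence of a response. Both probe sets were read on the same arrays, so their agreement adds little. In this comparison 0% of all probe sets and 0 of the 5 family probe sets were called by limma, and 248 probe sets and 0 family probe sets had an unadjusted p under 0.05. In Socs3-deleted mice the changes after IL-6 were 0.32 and 0.15, and the groups overlapped on 162206_f_at. Averaged over both genotypes, the IL-6 response was 0.33 ± 0.12 (SE) on 92232_at (limma adjusted p = 0.391) and 0.24 ± 0.12 on 162206_f_at (limma adjusted p = 0.616). That comparison called 1.06% of all probe sets (102) and 0 of the 5 family probe sets. The exact permutation test within genotypes gave p = 0.0556 and p = 0.111. Between the genotypes, the IL-6 responses differed by -0.02 on 92232_at (95% interval -0.58 to 0.54) and -0.19 on 162206_f_at (-0.71 to 0.33).

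In Ifng-null mice, 92232_at read 163 and 114 after PBS and 133 and 130 after IFN-γ, and 162206_f_at read 125 and 92.8 after PBS and 108 and 113 after IFN-γ. The IFN-γ arrays lay between the PBS arrays on both probe sets, and the log2 changes were -0.05 and 0.03. In group means, the order on 92232_at began with IL-6-injected controls and went through the Ifng-null groups to PBS-injected controls, then to the IL-6 and last the PBS group of Socs3-deleted mice. The last 3 steps of that order separated the arrays, and the first 2 did not. On 162206_f_at the Ifng-null groups came first, IFN-γ before PBS. The IL-6 and PBS groups of control mice followed, then the IL-6 and PBS groups of Socs3-deleted mice. There the last step overlapped, as did the first 2. Over the 12 arrays the 2 Socs3 probe sets followed each other with r = 0.94, as a description of arrays that share their RNA.

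**Figure D2:**
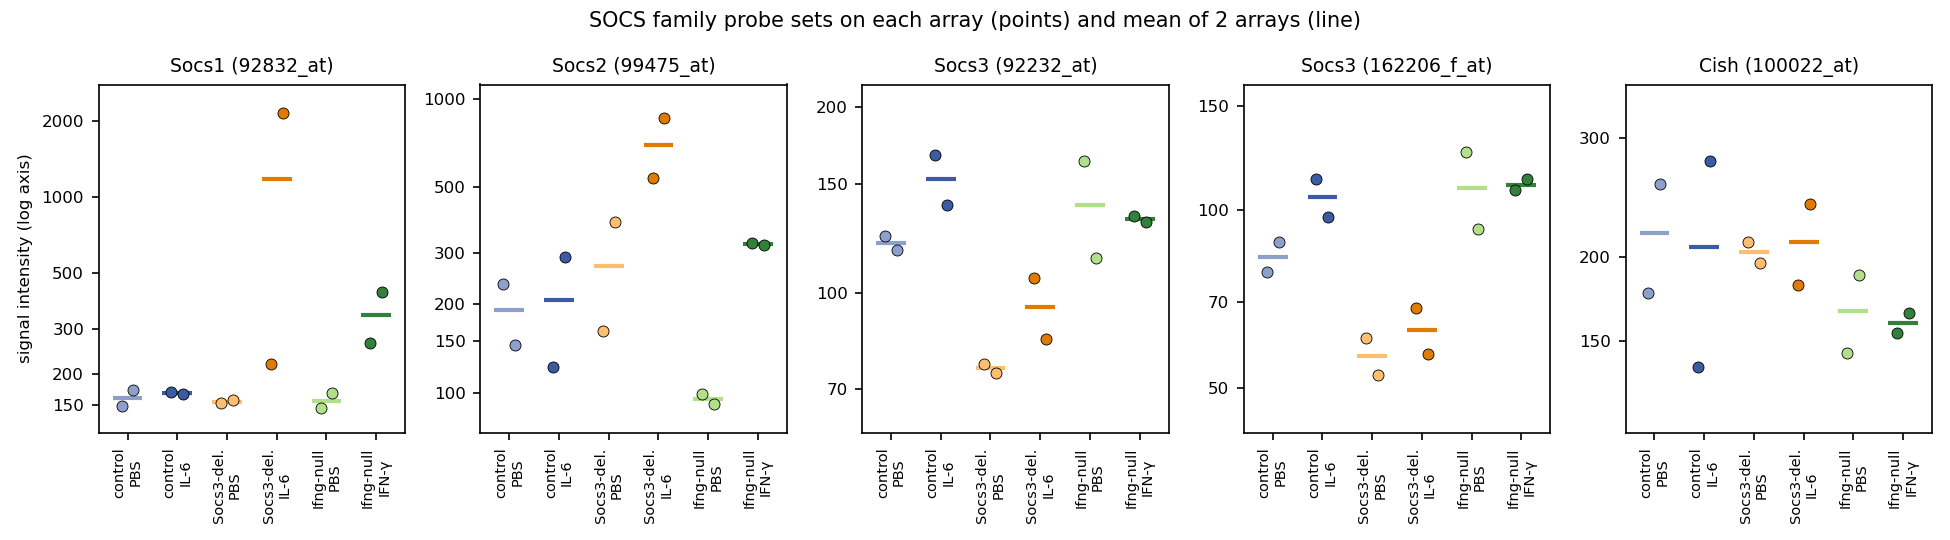
Signal intensity (log axis) of each SOCS family probe set on the 12 arrays, by genotype and injection; points are arrays and lines the means of 2. Socs1 has 1 array at 2150 among Socs3-deleted mice after IL-6, and both Socs3 probe sets read lowest in the Socs3-deleted groups.

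Socs1, the inhibitor that restrains interferon receptors, read 219 and 2150 in IL-6-injected Socs3-deleted mice. Ifng-null mice given IFN-γ read 265 and 419. The other 8 arrays lay in a narrow band. PBS-injected mice read 149 and 173 as controls, 153 and 157 with Socs3 deleted, and 146 and 167 without Ifng, and IL-6-injected controls read 169 and 166. All 4 arrays of the first 2 groups therefore lay above all 8 others, whose highest value was 173. In the order of group means the top 2 groups overlapped each other, and so did each neighbouring pair of the 4 lower groups. An exact two-sided permutation test of cytokine against PBS within the 3 genotypes gave p = 0.0278 for an observed mean log2 difference of 1.10. Of this family 15 such tests were run, and the p is not adjusted.

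The size of the Socs1 difference in Socs3-deleted mice rested on 1 array. Replicate 2 read 13.9 times the mean of the PBS arrays and 5.13 times the next highest of all arrays, and replicate 1 read 1.41 times the PBS mean. The log2 change was 2.15 ± 0.78 (SE), the 34th largest of 9633, with limma adjusted p = 0.326. This comparison called 1.18% of all probe sets (114) and 0 of the 5 family probe sets. Without replicate 1 it was 3.79 (limma adjusted p = 0.000453), and without replicate 2 it was 0.50 and not called. Each of these fits borrows the spread of the remaining groups for the single array left.

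Few probe sets differed as much as Socs1 between these replicates. Replicate 2 exceeded replicate 1 by 3.29 on the log2 scale for Socs1, the 5th largest absolute gap of 9633. The 4 larger gaps belonged to Hba-a1 (3.61), a probe set of several beta-globin genes (3.56), Hbb-b2 (3.35), all of haemoglobin chains, and Pck1, the gluconeogenic enzyme gene, in the opposite direction (-3.31). The summed signal of 4 erythroid markers was 766 in replicate 1 and 4298 in replicate 2, and reached 7176 on another array where Socs1 read 173 or less. That sum was higher in replicate 2 than in replicate 1 in every group, not only in this one. Hba-a1 by itself was not, since it read 325 and 317 in Ifng-null mice after PBS. The 7 endothelial markers summed to 1745 and 1333, and the 8 hepatocyte markers to 39780 and 37854. The part of blood content, or of any difference between these arrays, in the Socs1 value was not tested.

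**Figure D3:**
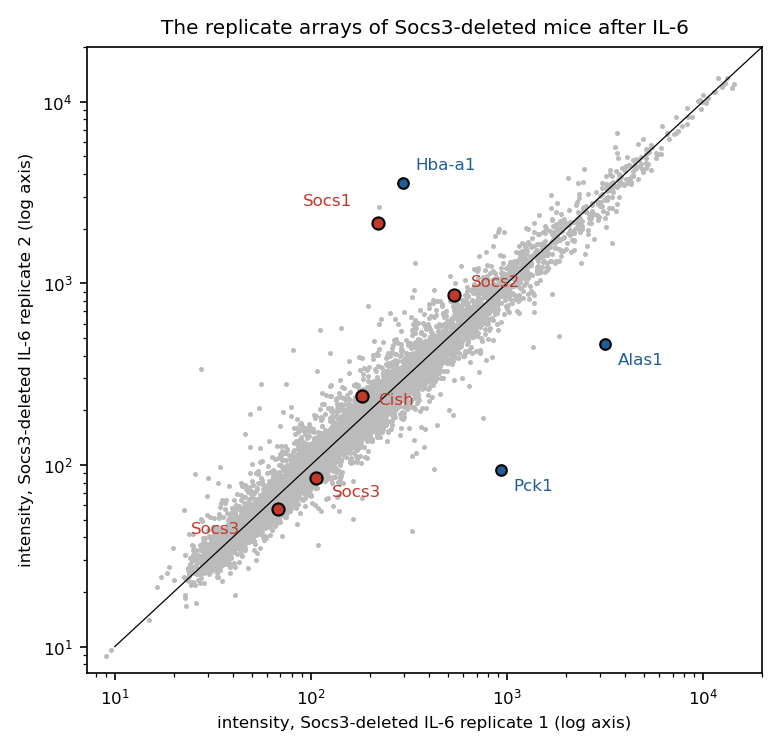
Intensity of each of the 9633 tested probe sets on the 2 arrays of Socs3-deleted mice after IL-6 (log axes; grey), with the SOCS family in red, 3 other genes in blue and the line of equality. Socs1 lies far above the line, at 219 and 2150, beside Hba-a1 (294 and 3584). Socs2 lies above it by less (537 and 862), and the Socs3 and Cish probe sets lie nearer to it.

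In control mice IL-6 left the Socs1 arrays within the range of the PBS arrays. The log2 change was 0.06 ± 0.78 (SE), with a 95% interval of -1.69 to 1.82. That SE is set by the spread of the Socs3-deleted IL-6 arrays, and a fit on the 4 control arrays alone gave an SE of 0.10. Between the genotypes, the IL-6 responses differed by 2.08 (95% interval -0.40 to 4.57; limma adjusted p = 0.999), in a comparison that called 0.0415% of all probe sets (4) and 0 of 5 family probe sets. Without replicate 1 of Socs3-deleted mice after IL-6 it was 3.73 (limma adjusted p = 0.00446), and without replicate 2 it was 0.44 and not called. After IL-6, Socs1 was 2.03 higher on the log2 scale in Socs3-deleted than in control mice, without overlap of the groups (limma adjusted p = 0.437), and 3.68 without replicate 1 of the Socs3-deleted arrays (limma adjusted p = 0.000517) but 0.39, not called, without replicate 2. After PBS the genotypes differed by -0.05.

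After IFN-γ both Socs1 arrays read above both PBS arrays of Ifng-null mice. The log2 change was 1.09 ± 0.78 (SE; limma adjusted p = 0.997), in a comparison that called 0.654% of all probe sets (63) and 0 of 5 family probe sets. At an unadjusted p under 0.05 it held 668 probe sets (6.93%) and 1 of the 5, Socs2. Leaving out either Socs3-deleted IL-6 array, which takes their spread out of the estimate, gave the same change with an SE of 0.20 (limma adjusted p = 0.0763). The IFN-γ response exceeded the IL-6 response of control mice by 1.03, where 0.0519% of all probe sets (5) and 0 of 5 family probe sets were called. Against the IL-6 response of Socs3-deleted mice it stood at -1.05, where 0.0208% of all probe sets (2) and 0 of 5 family probe sets were called. This last value turned to 0.59 without replicate 2 of that group, and was -2.70 without replicate 1 (limma adjusted p = 0.026).

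Socs2, a product of growth hormone signalling, read highest in the same pair of groups as Socs1. The arrays read 537 and 862 in IL-6-injected Socs3-deleted mice, against 323 and 319 for IFN-γ-injected Ifng-null mice. PBS-injected mice read 162 and 380 with Socs3 deleted, 235 and 146 as controls, and 99.1 and 91.4 without Ifng, and IL-6-injected controls read 122 and 291. Of the 8 arrays outside the top pair of groups, 1 exceeded the lowest array of that pair, replicate 2 of Socs3-deleted mice after PBS. In the order of group means the highest group separated from the next and the lowest from the one above it, and the groups between overlapped their neighbours. Unlike Socs1, both arrays of Socs3-deleted mice after IL-6 exceeded all 10 others.

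The log2 change of Socs2 after IL-6 was 1.45 ± 0.47 (SE), or 2.74-fold, in Socs3-deleted mice (limma adjusted p = 0.254), and 0.03 ± 0.47 in control mice, where the groups overlapped. The difference between these responses was 1.43 (95% interval -0.07 to 2.92; limma adjusted p = 0.999). After IL-6 Socs2 was 3.61-fold higher in Socs3-deleted than in control mice (log2 1.85; limma adjusted p = 0.148), the 32nd largest of 9633 differences. After PBS the difference was 0.42, with overlap. It turned to -0.54 without the 2 arrays of high Prss2, so the baseline direction is not settled. Averaged over both injections, the deletion gave 1.14 ± 0.33 (SE; limma adjusted p = 0.207), and the exact permutation test gave p = 0.111.

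After IFN-γ, Socs2 was 3.37-fold higher in Ifng-null mice than after PBS, a log2 change of 1.75 ± 0.47 (SE), the 35th largest of 9633. It was not called, at limma adjusted p = 0.265 (0.0579 to 0.979 over 22 alternatives). It exceeded the IL-6 response of control mice by 1.73 (limma adjusted p = 1) and that of Socs3-deleted mice by 0.30. After PBS, both Ifng-null arrays read below both control arrays, at a log2 difference of -0.96 (limma adjusted p = 0.873). In this comparison of genotypes 0% of all probe sets and 0 of 5 family probe sets were called. An unadjusted p under 0.05 was found for 298 probe sets and 1 of the 5, Socs3 on 162206_f_at. Socs3 was higher there in Ifng-null mice by 0.37, without overlap (limma adjusted p = 0.873), and by 0.18 on 92232_at, with overlap. For Socs2, the exact permutation test of cytokine against PBS within genotypes gave p = 0.037 with a mean log2 difference of 1.08. For IL-6 within control and Socs3-deleted mice the exact permutation test gave p = 0.222, and these p-values are not adjusted. Socs2 was called by limma in none of the 11 comparisons under any of 22 alternatives.

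**Figure D4:**
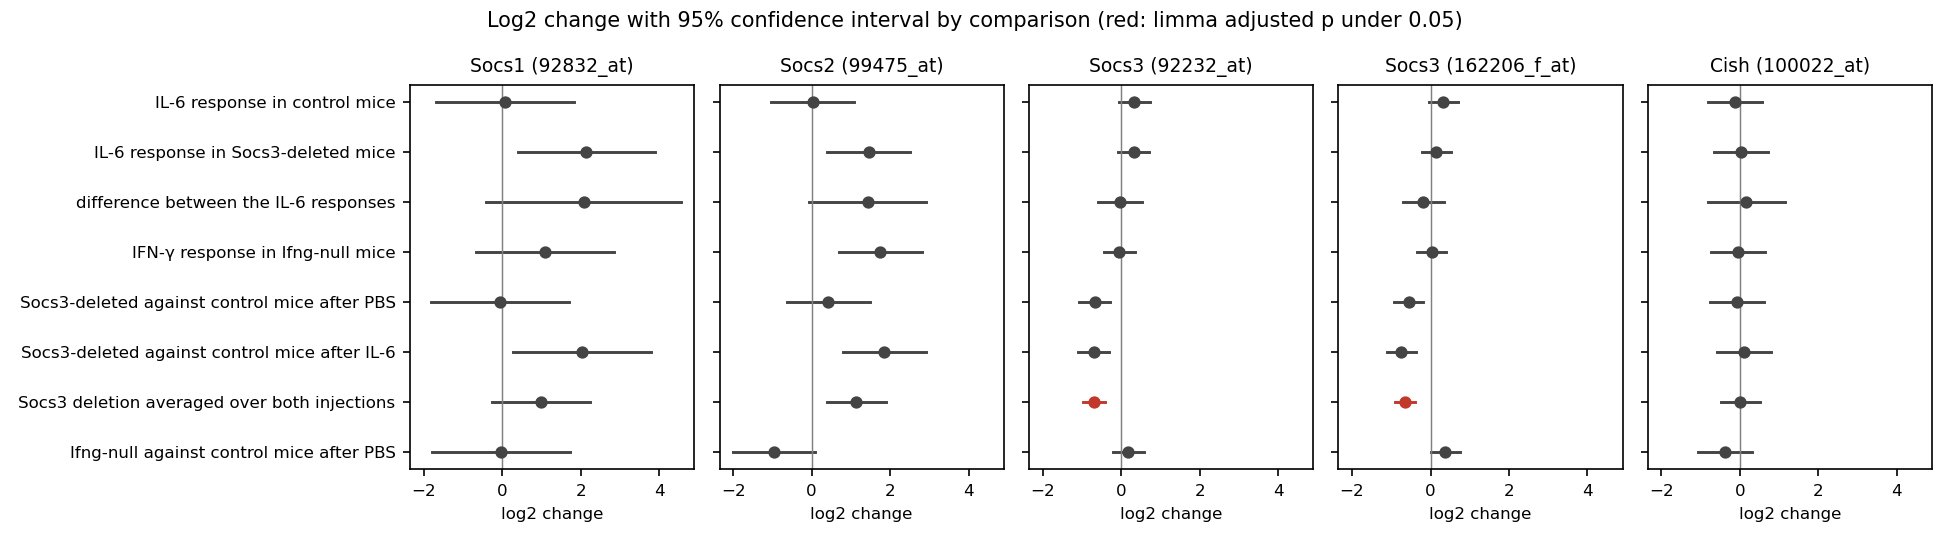
Log2 change with its 95% confidence interval (limma, 12 arrays) for each SOCS family probe set in 8 comparisons; red marks a limma adjusted p under 0.05. The 2 calls are Socs3 with its deletion averaged over both injections (-0.68 and -0.65), and the Socs1 intervals are wider than those of the other members.

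Cish, which encodes CIS, showed no group apart from the rest. Control mice read 177 and 257 with PBS and 137 and 277 with IL-6, and Socs3-deleted mice 210 and 196 with PBS and 182 and 239 with IL-6. Ifng-null mice read 144 and 188 with PBS and 154 and 165 with IFN-γ. The highest and the lowest array both came from control mice after IL-6. The highest array read 2.02 times the lowest, against 14.7 times for Socs1, 9.43 times for Socs2 and 2.25 and 2.39 times for Socs3. Log2 changes were -0.13 after IL-6 in control mice, 0.04 after IL-6 in Socs3-deleted mice (95% interval -0.65 to 0.73), -0.05 after IFN-γ (-0.73 to 0.64) and -0.37 for PBS-injected Ifng-null mice against controls. Between Socs3-deleted and control mice they were -0.07 after PBS and 0.10 after IL-6.

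Socs2 and Cish, which both answer to growth hormone, also differed between replicates within groups. In control mice after IL-6, replicate 2 exceeded replicate 1 by 1.25 on the log2 scale for Socs2, the 29th largest gap of 9633, and by 1.01 for Cish, the 46th largest. With PBS the gap was 1.23 for Socs2 and -0.10 for Cish in Socs3-deleted mice, and -0.69 and 0.54 in controls, so the pair did not move together in those groups. In Socs3-deleted mice after IL-6 both were higher in replicate 2, by 0.68 and 0.39. In Ifng-null mice the gaps of Socs2 and Cish were -0.12 and 0.38 with PBS, and -0.02 and 0.10 with IFN-γ. Over the 12 arrays Socs2 and Cish correlated at r = 0.31, Socs2 and Socs1 at 0.69, and Socs2 and Socs3 at -0.47, as descriptions of arrays that share treatments. Ranked by the residual SD within groups, Socs1, Socs2 and Cish stood at the 99.7th, 98.8th and 96.0th percentile of tested probe sets, and the Socs3 probe sets at the 72.2nd and 66.2nd.

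The genes that act with the family were read from lists. Other brakes on JAK-STAT signalling gave 1 called gene of 8, Usp18, which encodes a protease that removes ISG15 and restrains the type I interferon receptor. In control mice Usp18 read 93.0 and 85.1 with PBS and 146 and 123 with IL-6. In Socs3-deleted mice it read 132 and 102 with PBS and 879 and 704 with IL-6, and in Ifng-null mice 149 and 153 with PBS and 706 and 1103 with IFN-γ. It thus read high in the same pair of groups as Socs1, with replicates that agreed more closely. The log2 change was 2.76 ± 0.21 after IL-6 in Socs3-deleted mice (limma adjusted p = 0.000537) and 2.55 ± 0.21 after IFN-γ (limma adjusted p = 0.000724). These 2 comparisons called 1.18% and 0.654% of all probe sets. Socs5, the other SOCS gene on this list with a tested probe set, changed by 0.06 and 0.08 in those comparisons.

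Of 9 kinases and phosphatases that the family acts beside, Jak2, a kinase that SOCS1 and SOCS3 inhibit, rose by 0.76 and Ptpn2, a phosphatase of JAKs and STATs, by 1.02 after IL-6 in Socs3-deleted mice (limma adjusted p = 0.00612 and 0.0425), and none passed after IL-6 in control mice or after IFN-γ. Of 15 cytokine receptors, Osmr, the oncostatin M receptor subunit, was higher with the Socs3 deletion, by 0.87 averaged over both injections (limma adjusted p = 0.0186). Of 16 STAT3-linked target genes, 3 were higher with the deletion averaged over both injections, namely Lcn2 (3.34), Cebpd (1.66) and Bcl3 (0.75). A2m and Bcl3 rose after IL-6 in Socs3-deleted mice, and Icam1 (1.61) after IFN-γ. With IL-6 averaged over both genotypes, Saa3 (2.93), Lcn2 (2.66) and Bcl3 (0.98) rose. So did Ptpn1 (1.11) and Jak2 (0.39) of the kinases and phosphatases. Of all probe sets, 1.18% were called after IL-6 in Socs3-deleted mice and 0.654% after IFN-γ. The averaged deletion called 0.799% and the averaged IL-6 response 1.06%. None passed in any of the 11 comparisons among 6 STAT and partner factors and among 8 SOCS box genes and ligase partners of the SOCS box. None passed either among 10 growth hormone and STAT5-linked genes. The median changes of these lists, in this order, after IL-6 in Socs3-deleted mice were 0.21, -0.05 and -0.07. The comparisons called 0% to 1.18% of all probe sets, so a count of 0 in lists this short is near that share.

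The probe sets most like each member over the 12 arrays were ranked by Pearson's r of log2 values, with no test. E2f8, which encodes a cell cycle transcription factor, was nearest to Socs1 (r = 0.97) on a probe set that lay above the floor on the 4 arrays where Socs1 was highest and below it on the other 8. Values below the floor were set to it before r was taken. Apobec1 (0.96), Ier3 (0.95), Ifitm6 (0.95) and Smagp (0.95) followed. Ifitm6 read 25.8 to 42.8, around the floor. Like Socs1, Apobec1 (185), Ier3 (278) and Smagp (545) were highest on replicate 2 of Socs3-deleted mice after IL-6. That 1 array weighs heavily in each r with Socs1, so these values say little about likeness on the other arrays. The nearest to Socs2 were the 3 probe sets of Clic4, a chloride intracellular channel gene (0.91, 0.90 and 0.88), E2f8 on another probe set (0.91) and Gpc4 (0.91). The nearest to Socs3 on 92232_at were Smyd2 (0.86), Acaa1b, a peroxisomal thiolase gene, on both of its probe sets (0.83 and 0.80), Lta (0.81) and Tbc1d10a (0.80). The nearest to Cish were Shkbp1 (0.87), Mag (0.85), Cggbp1 (0.84), Phlda1 (0.83) and Polr2a (0.82). All of these but Phlda1 were read on probe sets with the suffix _r_at, and whether those read only the named gene was not tested.

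**Figure D5:**
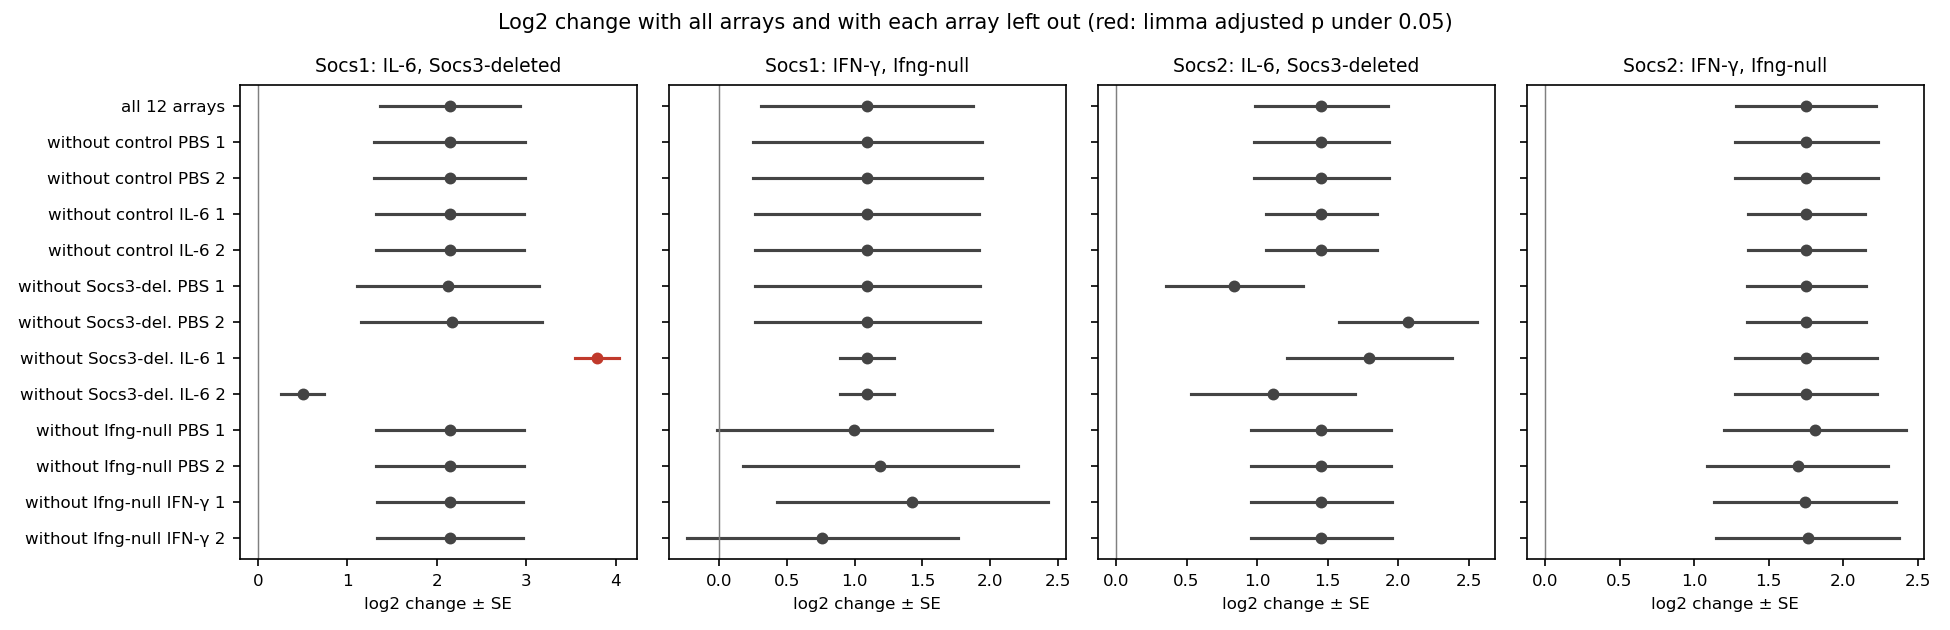
Log2 change ± SE of Socs1 and Socs2 after IL-6 in Socs3-deleted mice and after IFN-γ in Ifng-null mice, with all 12 arrays and with each array left out; red marks a limma adjusted p under 0.05. Socs1 moves between 0.50 and 3.79 with the Socs3-deleted IL-6 array left out, and Socs2 stays between 0.84 and 2.07 after IL-6.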

How the data were processed

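Total liver RNA of 12 samples was hybridised to Affymetrix mouse arrays. The deposited table gives 1 linear signal intensity per probe set and array; the sources used here do not say how the authors computed it, so its background correction and scaling are unknown. Groups and replicate numbers came from the sample titles.

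Control probe sets (66) were left out, and intensities below 33.1, the 25th percentile, were set to it before log2, which understates changes near it. Probe sets above it on at least 2 arrays (9633) were tested with limma 3.58.1 in R 4.3.3: 6 group means, 11 contrasts, 6 residual and 3.4 prior degrees of freedom, two-sided, with Benjamini-Hochberg adjustment over all 9633 and a threshold of 0.05. The precision is limited by 2 arrays per group. Groups of 2 arrays often separate without overlap by chance. The share of all probe sets that did so is not given here, so a lack of overlap only describes the arrays. Exact permutation tests were stratified. The code was tested on simulated data. Members, lists and alternatives were chosen with earlier results of these data known. Named were all members, per list up to 3 called genes by size of change in the comparisons described, and per member the 5 most similar probe sets. Socs5 and the genes of the replicate gap were chosen after their values were seen. A gene on a list is read on its probe set of highest mean. The results of 1 list are not reported here.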

Additional observations from a re-analysis of the deposited data

How the results depend on the processing

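Over 22 alternatives, the number of the 5 family probe sets called by limma stayed 0 for the control IL-6 response, the IFN-γ response, its difference from the IL-6 response of control mice, and the genotype comparisons after PBS. With the Socs3 deletion averaged over both injections it fell from 2 to 0 with a floor at the 50th percentile, with no floor and 32 added, with no filter on dim probe sets, with only the arrays compared and without the 2 arrays of high pancreatic signal, and ranged from 0 to 2 with 1 array left out. It rose from 0 to 2 with array weights for Socs3-deleted against control mice after IL-6. With 1 array left out it ranged from 0 to 1 there, for the IL-6 response in Socs3-deleted mice and averaged over genotypes, for the difference of both IL-6 responses and for the IFN-γ against the Socs3-deleted IL-6 response; in each, the 1 was Socs1 without replicate 1 of Socs3-deleted mice after IL-6. The causes of the other changes were not tested.

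Directions turned mostly for values near 0. With 1 array left out, the IL-6 response in control mice ranged from -0.041 to 0.17 (Socs1), -0.60 to 0.65 (Socs2) and -0.64 to 0.38 (Cish), that in Socs3-deleted mice from -0.16 to 0.24 (Cish), and the difference between them from -0.18 to 0.14 (Socs3, 92232_at). The IFN-γ response ranged from -0.31 to 0.21 and -0.18 to 0.25 (Socs3, 92232_at and 162206_f_at) and -0.24 to 0.15 (Cish). Against the IL-6 response of Socs3-deleted mice it ranged from -2.70 to 0.59 (Socs1) and -0.32 to 0.91 (Socs2). Between Socs3-deleted and control mice the range was -0.15 to 0.058 (Socs1), -0.19 to 1.04 (Socs2) and -0.34 to 0.20 (Cish) after PBS, and -0.41 to 0.60 (Cish) after IL-6. Between Ifng-null and control mice it was -0.14 to 0.068 (Socs1) and -0.080 to 0.44 (Socs3, 92232_at). Without the arrays of high pancreatic signal, the IL-6 response was -0.32 (Socs2) and 0.14 (Cish) in control mice and -0.011 (Cish) in Socs3-deleted mice, the genotype difference after PBS was 0.040 (Socs1), -0.54 (Socs2) and 0.25 (Cish), that of Ifng-null mice 0.068 (Socs1), and the IFN-γ against the Socs3-deleted IL-6 response -0.32 (Socs2). With quantile normalization, the stratified deletion difference of Cish was -0.0088.

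The replicate number was also used as a block. Correlations of deviations between groups ran from -0.25 to 0.66 over 15 pairs of groups, with the highest between the 2 Ifng-null groups. Since the groups did not all deviate together, the numbers were not taken to pair the samples, though those 2 groups shared a deviation by number. The summed erythroid signal and Phlda1 were also higher in replicate 2 in every group, though Hba-a1 by itself was not in Ifng-null mice after PBS (325 and 317). The replicate block left the count of family probe sets called at 2 for the averaged deletion and at 0 elsewhere.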

Other observations

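Phlda1, an early response gene among those most similar to Cish, read higher in replicate 2 than in replicate 1 in all 6 groups. With PBS it read 283 and 946 in control, 197 and 407 in Socs3-deleted and 191 and 755 in Ifng-null mice. It read 161 and 987 with IL-6 in controls, 197 and 755 with IL-6 in Socs3-deleted mice, and 165 and 278 with IFN-γ. Ier3, an immediate-early gene among those most similar to Socs1, read 74.5 and 278 in Socs3-deleted mice after IL-6 and 45.4 to 66.1 on the other 10 arrays. Between those 2 arrays Alas1, the first enzyme gene of haem synthesis, ran the other way (3177 and 462), as did Ppara, a nuclear receptor gene of fatty acid oxidation (424 and 95.4). These genes were picked after their values were seen and nothing was tested on them.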
